A study of Mus musculus with 8 samples.

Results

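The peaks described here are those that ATAC-seq placed on the mitochondrial genome (chrM) of mouse amygdala neurons. They were taken as all lines of the 8 peak lists that lie on none of chromosomes 1 to 19, X and Y, with several summits of 1 interval collapsed to the strongest. This gave 39 intervals carrying 241 summits, of 649153 intervals in all. All 39 lay on chrM, and none of the 8 lists held a peak on an unplaced or unlocalised contig, so the account is of the mitochondrial genome alone.

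ATAC-seq cuts DNA with the transposase Tn5 and sequences the fragments, so that a peak marks a place cut more often than its background. The mice were male C57BL/6J, and their amygdala had received an adeno-associated virus carrying a guide RNA against Nr2f2 (sgNr2f2, n = 4) or against the Rosa26 locus, a common control target (sgRosa, n = 4). Nr2f2 encodes the nuclear receptor COUP-TFII. Mice of both groups had more than 2 weeks of viral expression and 7 days of tube restraint. They were then fear conditioned for 1 day and underwent extinction for 3 days, so no unstressed or virus-free group was compared. The tissue was digested with papain, neurons were enriched with a magnetic isolation kit, and their nuclei were transposed. The study asked how Nr2f2 bears on chromatin accessibility and describes the guides as neuron-targeting and sgNr2f2 as a knockdown. The age of the mice, the promoter and the source of Cas9 are not stated, and the level of Nr2f2 RNA was not measured here. A library is counted as 1 mouse, since the design gives 4 mice to either group. A peak list cannot show that the cells were neurons. For reference, a peak with a q under 0.05 lay in or within 1 kb of the neuronal gene Rbfox3 in 7 of 8 libraries, Map2 in 3, Snap25 in 2, Tubb3 in 1 and Syn1 in 0.

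The mitochondrial genome is a small circle present in many copies per cell. It is packaged by the protein TFAM and not by nucleosomes, which leaves it open to Tn5 wherever mitochondria accompany the nuclei. It encodes core subunits of the respiratory chain and of ATP synthase, the rRNAs of the mitochondrial ribosome and a set of tRNAs. Its control region, which holds no gene, contains the promoters and the origin of heavy strand replication. The nuclear genome also carries copies of mitochondrial segments, known as NUMTs.

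The chrM intervals had nearly the same positions in every library. Merging intervals that overlapped by at least 1 bp gave 5 regions in mm10 coordinates, of which 4 were found in all 8 libraries, against 0.0599% of all 405597 merged regions. The first, chrM:52-1622, covered mt-Rnr1, TrnV and the first part of mt-Rnr2, that is, most of the rRNA genes. The second, chrM:1743-5000, ran from mt-Rnr2 over ND1 and ND2. The next, chrM:5766-6416, lay inside COX1. The longest, chrM:10978-15697, ran from within ND4 over ND5, ND6 and CYTB into the control region. The last, chrM:16037-16234, lay wholly in the control region, which the gene table bounds by the end of TrnP at 15422, and was found in 3 sgNr2f2 and 3 sgRosa libraries. The libraries without it were replicate 1 of either group.

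The edges of the intervals moved little between libraries. The start of the rRNA interval differed by at most 3 bp over the 8 libraries and the end of the COX1 interval by at most 2 bp. The start of the ND4 to control region interval differed by at most 7 bp and its end by 19 bp. The largest shift was at the end of the mt-Rnr2 to ND2 interval, which lay between 4910 in sgNr2f2 3 and 5000 in sgNr2f2 1. In sgNr2f2 3 the ND4 to control region interval was split in 2 by a gap of 44 bp at 14082 to 14125, which lies over part of TrnE. Together the intervals covered 9974 bases in all 8 libraries and 10398 bases in at least 1. The bases covered in a pair of libraries, as a Jaccard index, overlapped by 96.3% to 99.8% over the 28 pairs. The median was 98.1% within sgNr2f2, 98.7% within sgRosa and 98.4% between the groups.

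**Figure D1:**
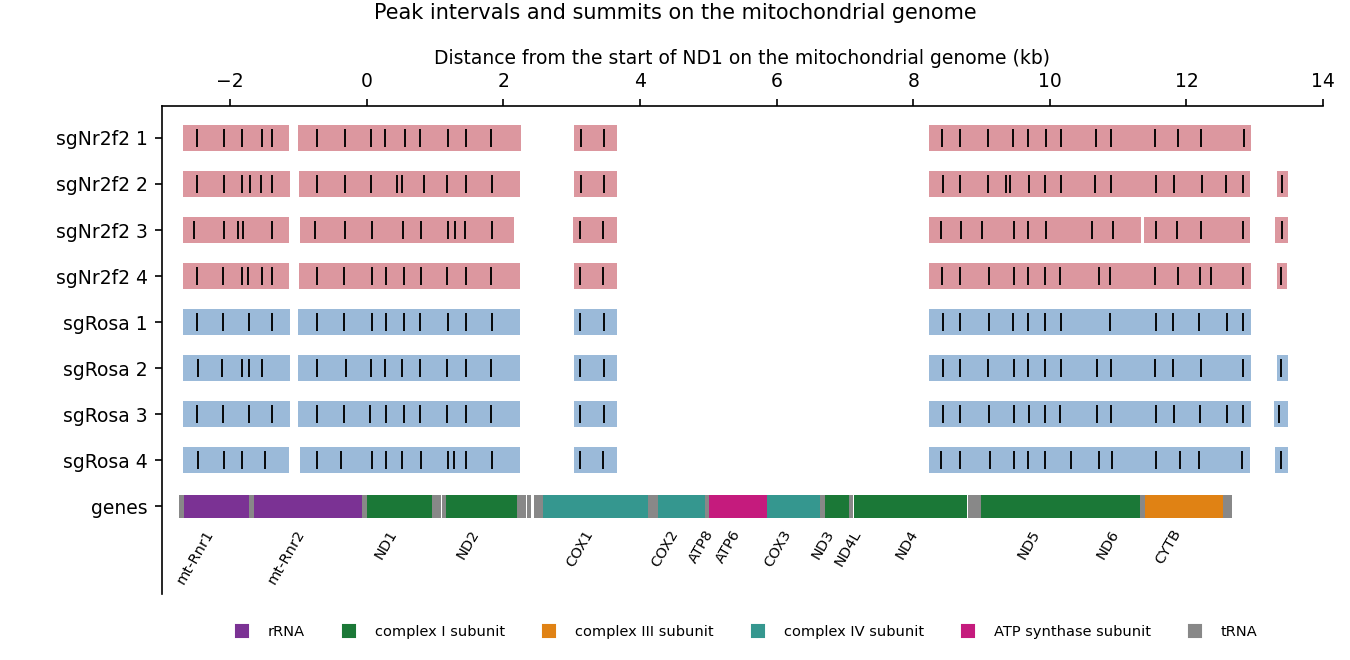
Peak intervals (bars) and summits (black ticks) of each library along the mitochondrial genome, with distance from the start of ND1 in kb on the horizontal axis and the genes coloured by role at the bottom. The same 4 intervals stand in all 8 libraries, the short interval at the right end is missing in replicate 1 of both groups, and no library has a peak between COX1 and ND4.

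The gene table places 37 genes on chrM. Of these, 15 were fully covered by peaks in all 8 libraries, 7 were covered in part or not in every library, and 15 were touched by no peak in any library. Both rRNA genes were covered: mt-Rnr1, for the small ribosomal subunit, fully in all libraries, and mt-Rnr2, for the large one, over 89.4% to 92.4% of its length. Of the 7 subunits of complex I, the NADH dehydrogenase at the entry of the respiratory chain, ND1, ND5 and ND6 were fully covered. ND2 was fully covered in 7 libraries and to 96.1% in sgNr2f2 3. ND4 was covered over 40.6% to 41.1%, and ND3 and ND4L were not touched. CYTB, the one mitochondrial subunit of complex III, was fully covered.

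The remaining protein genes carried few peaks. Of the 3 subunits of complex IV, cytochrome c oxidase, COX1 was covered over 41.1% to 42.0% of its length and COX2 and COX3 were not touched. Both ATP synthase subunits, ATP6 and ATP8, were untouched. Of the 22 tRNA genes, 10 were fully covered in all libraries, 3 in part (TrnF, TrnW and TrnE) and 9 were untouched. The untouched tRNA genes were TrnA, TrnN, TrnC and TrnY, between the mt-Rnr2 to ND2 and COX1 regions, and TrnS1, TrnD, TrnK, TrnG and TrnR, between COX1 and ND4.

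Between the merged regions, the longest stretch without a peak in any library ran from 6417 to 10977. It was 4561 bp long and holds COX2, ATP8, ATP6, COX3, ND3 and ND4L whole. The other stretches between regions that were empty in every library were 765 bp long from 5001 to 5765, 339 bp from 15698 to 16036 and 120 bp from 1623 to 1742. Pseudogenes with the lengths of genes in this long stretch stand in the nuclear gene table. On chromosome 1 the table places the pseudogenes Gm10222 at 24612404 to 24612700 and Gm10925 at 24613971 to 24614651. Gm10222 has a length of 297 bp, as ND4L has, and Gm10925 a length of 681 bp, as ATP6 has. They stand 1270 bp apart, in the reverse order, while ATP6 and ND4L stand 1269 bp apart on chrM. The match rests on these lengths and the spacing, and no sequences were compared. No library had a peak on chromosome 1 between the outer ends of the pseudogenes, and the nearest peak of any library was 2391 bp away. Whether any reads match both chrM and these pseudogenes was not examined. How the aligner and its filters would treat such reads is not stated by the labels or files, and its part in the missing peaks was not tested.

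The chrM intervals were among the strongest peaks of every library by −log10 p, which the peak caller gives for the summit of an interval against its background. The ND4 to control region interval had a −log10 p of 612, 274, 421 and 562 in sgNr2f2 libraries 1 to 4, against 825, 887, 837 and 469 in sgRosa libraries 1 to 4. It ranked 9, 20, 14 and 8 in the sgNr2f2 lists, against 6, 5, 5 and 8 in the sgRosa lists. The lowest sgRosa library, sgRosa 4, lay within the range of the sgNr2f2 libraries, so the groups overlapped in both values.

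The mt-Rnr2 to ND2 interval had a −log10 p of 479, 273, 318 and 453 in sgNr2f2 libraries 1 to 4, against 847, 726, 801 and 387 in sgRosa libraries 1 to 4. The rRNA interval had 324, 175, 175 and 269 in sgNr2f2, against 527, 601, 544 and 223 in sgRosa. In both, sgRosa 4 fell among the sgNr2f2 libraries. The COX1 interval was weaker, with 130, 52.9, 111 and 77.2 in sgNr2f2, against 131, 130, 107 and 71.4 in sgRosa, and ranked between 39 and 75 over the 8 lists. The control region interval was the weakest, with 17.6, 26.4 and 21.98 in sgNr2f2 libraries 2 to 4, against 25.0, 57.8 and 31.2 in sgRosa libraries 2 to 4. The ranges overlapped for these intervals too. A −log10 p grows with depth, so these values order intervals within a library and do not measure amounts between libraries.

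Most chrM intervals were broad, and all were of low fold enrichment. The exception in width was the control region interval, with 152 to 198 bp and 1 summit in each library that had it. The median width of a library's chrM intervals averaged 1772 ± 391 bp, against 167 ± 2.05 bp for its peaks on the chromosomes (SD, n = 8 libraries; two-sided exact sign-flip permutation p = 0.00781, adjusted p = 0.00781, wider on chrM in 8 of 8). A chrM interval carried on average 6.26 ± 0.747 summits, against 1.01 ± 0.00254 for intervals on the chromosomes (exact p = 0.00781, adjusted p = 0.00781, 8 of 8). The widest interval was on chrM in 7 libraries, at 4699 to 4720 bp. In sgNr2f2 3, where it was split, the widest chrM interval had 3139 bp and the widest peak on a chromosome 3686 bp.

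The fold enrichment at the strongest summit had a median of 2.12 ± 0.0901 over the chrM intervals of a library, against 2.63 ± 0.0566 over its peaks on the chromosomes (SD, n = 8; exact p = 0.00781, adjusted p = 0.00781, lower on chrM in 8 of 8). Between 40 and 148 peaks on the chromosomes per library were at least as strong by −log10 p as the library's weakest chrM interval. Their median width lay between 357 bp in sgRosa 4 and 509 bp in sgRosa 1, above that of all peaks on the chromosomes. The chrM medians of these 2 libraries were 1551 and 2407.5 bp. The median fold of the strong peaks on the chromosomes averaged 13.8 ± 4.55 (SD, n = 8). They were chosen by −log10 p, which over a low background takes a high fold, so this value is a description with no test. The full lists were likewise limited by −log10 p, with a smallest value of 2. Over their low background, peaks on the chromosomes needed a higher fold than chrM intervals to be listed. The direction of the fold test was therefore set in part by this limit, and its p adds little. The p of 0.00781 is the smallest p that 8 libraries allow, and the adjustment covers 3 comparisons of chrM with the chromosomes.

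**Figure D2:**
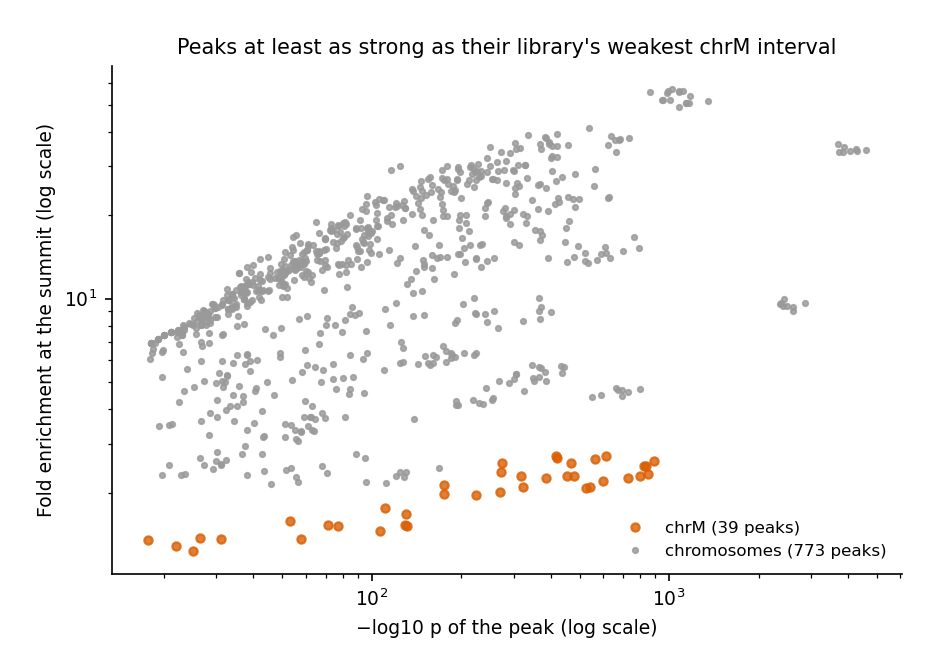
Fold enrichment at the summit against −log10 p, both on log scales, for the 39 chrM intervals and the 773 peaks on the chromosomes that were at least as strong as the weakest chrM interval of their library. The chrM intervals form a band of fold between 1.23 and 2.72 that runs below the peaks on the chromosomes at the same −log10 p.

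The fold of a peak is relative to a background that the peak caller sets for its place, so the coverage behind each chrM summit was recovered. Fold was taken as (pileup + 1) / (background + 1) and p as the Poisson tail above the pileup, where pileup is the number of fragments or extended reads over the summit. All 241 chrM summits solved to a whole pileup within a relative tolerance of 2e-05 of the deposited −log10 p. The highest chrM pileup was 4097, 2189, 2740 and 3909 in sgNr2f2 libraries 1 to 4, against 7014, 6425, 6882 and 3467 in sgRosa libraries 1 to 4. The median background at the chrM summits was 1562, 793, 1053 and 1483 in sgNr2f2, against 2609, 2472, 2518 and 1340 in sgRosa. The low fold values on chrM thus stood over high local backgrounds. The genome-wide background, the most frequent value among the peaks on the chromosomes, was 4.02, 3.34, 4.22 and 3.54 in sgNr2f2, against 4.20, 3.18, 4.28 and 2.30 in sgRosa, and the groups overlapped.

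Relative to the genome-wide background of the same library, every sgNr2f2 library had less mitochondrial signal than every sgRosa library. The ratio of the median chrM background to the genome-wide background was 388, 238, 249 and 419 in sgNr2f2 libraries 1 to 4, against 621, 777, 588 and 582 in sgRosa libraries 1 to 4. The highest sgNr2f2 ratio, 419, lay below the lowest sgRosa ratio, 582. For sgRosa 4 this separation rests on the scaling. Its unscaled median chrM background, 1340, lay below those of sgNr2f2 1 and 4, 1562 and 1483. Its genome-wide background, 2.30, was the lowest of the 8 libraries, and its peak list, with 143450 intervals, the longest. The means of the scaled values were 324 ± 93.6 in sgNr2f2 and 642 ± 91.9 in sgRosa (n = 4 libraries per group, ± SD), a ratio of 0.504. The exact permutation p, two-sided, was 0.0286, the smallest that 4 against 4 libraries allow. This ratio was chosen after the peak values had been seen. Adjusted together with the 8 comparisons given further on, its p was 0.257, which does not pass. As 0.0286 is the smallest possible p, no single comparison among these could pass alone, so the adjustment does not decide. For the nuclear regions shared by all 8 libraries, the median summit pileup over the genome-wide background was 12.3 ± 0.643 in sgNr2f2 and 12.3 ± 1.38 in sgRosa (n = 4 libraries per group, ± SD; exact p = 1). This value of the nuclear regions was highest in sgRosa 4, at 14.3, against 11.4 to 13.0 in the other libraries. Fewer mitochondrial genomes in the transposed material and less cutting per genome cannot be told apart from peak lists. The treatment of duplicate fragments, which can cap a pileup, is likewise not stated and its part was not tested.

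The same measure was then fitted over all regions shared by the 8 libraries. The summit pileup over the genome-wide background of 243 regions, 4 of them on chrM, was compared on the log2 scale with limma. Limma sets the variance of a region partly from the other regions, here mostly on the chromosomes. Their spread need not match that of chrM between mice, so the limma p values and SEs do not rest on the chrM spread alone. At an adjusted p under 0.05 all 4 chrM regions were called lower in sgNr2f2, as were 5 of the 243 regions in all, or 2.06%, and 0 were higher (0%). The median log2 difference (sgNr2f2 minus sgRosa) was -1.0003 over the 4 chrM regions and -0.02 over all 243. The remaining called region lay on chromosome 16 at 28715463 to 28715625 inside Fgf12, with a log2 difference of -0.93 (limma adjusted p = 0.0333). This call was lost in 5 of the 8 fits that left out 1 library, those without sgNr2f2 1, 2 or 3 and without sgRosa 1 or 3. Without sgNr2f2 2 or without sgNr2f2 3, the libraries with the lowest mitochondrial ratio, no chrM region was called. The log2 differences of the 4 regions were then -0.95 to -0.78 without sgNr2f2 2 (smallest limma adjusted p = 0.0655) and -0.93 to -0.84 without sgNr2f2 3 (smallest limma adjusted p = 0.0564).

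**Figure D3:**
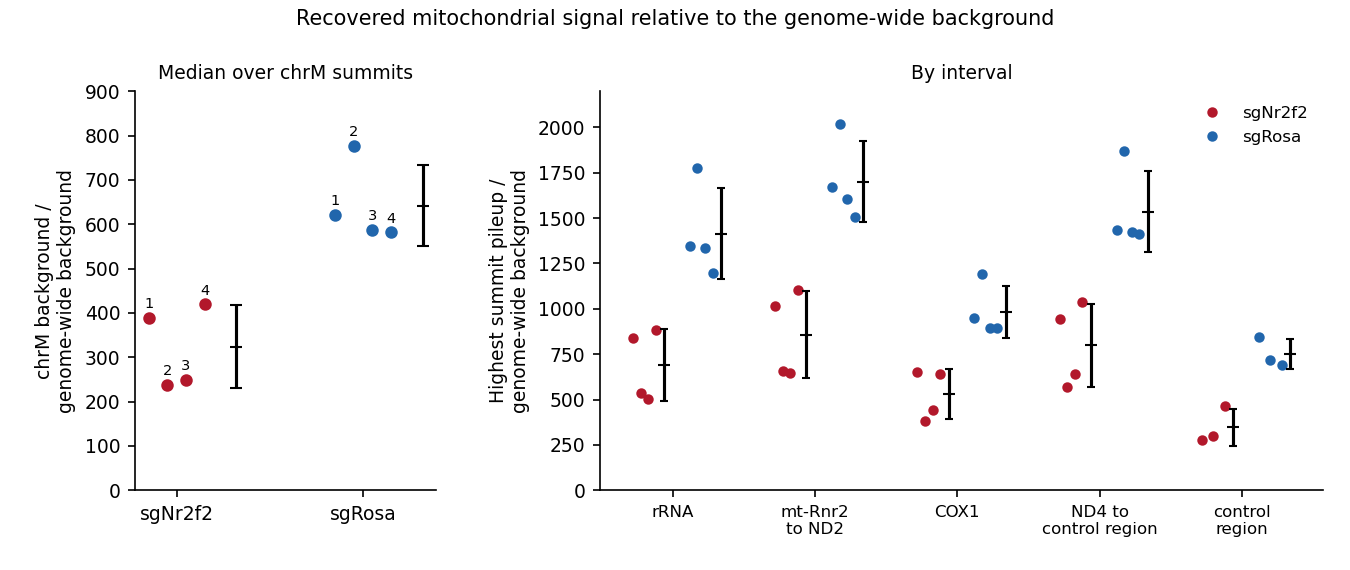
Left, the median background recovered at the chrM summits divided by the genome-wide background, with the replicate number beside each library. Right, the highest summit pileup of each chrM interval divided by the genome-wide background. Points are libraries, bars are mean ± SD, and the sgNr2f2 points lie below the sgRosa points in every interval, with group means of 324 and 642 on the left.

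The log2 differences of the 4 chrM regions lay between -1.06 and -0.92. None was called without sgNr2f2 2 or without sgNr2f2 3, at log2 differences of -0.95 and -0.93 for the rRNA interval and -0.91 and -0.90 for mt-Rnr2 to ND2. In the rRNA interval the highest pileup was 842, 534, 505 and 884 times the genome-wide background in sgNr2f2 libraries 1 to 4, against 1348, 1779, 1334 and 1198 times in sgRosa libraries 1 to 4. The log2 difference was -1.06 (SE 0.21, limma adjusted p = 0.00388). In the mt-Rnr2 to ND2 interval the values were 1018, 656, 649 and 1105 in sgNr2f2, against 1670, 2020, 1606 and 1505 in sgRosa (log2 difference -1.02, SE 0.21, limma adjusted p = 0.00388). In every one of these comparisons the highest sgNr2f2 library stayed below the lowest sgRosa library.

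In the COX1 interval the highest pileup was 651, 384, 441 and 642 times the genome-wide background in sgNr2f2, against 947, 1193, 894 and 893 times in sgRosa (log2 difference -0.92, SE 0.19, limma adjusted p = 0.00388). In the ND4 to control region interval it was 947, 570, 639 and 1039 in sgNr2f2, against 1433, 1871, 1426 and 1411 in sgRosa (log2 difference -0.98, SE 0.21, limma adjusted p = 0.00466). The groups did not overlap in either, and both calls were lost without sgNr2f2 2, at log2 differences of -0.78 for COX1 and -0.83 for ND4 to control region, or without sgNr2f2 3, at -0.84 and -0.89. In the control region interval, which is absent from 1 library of each group and so was not in the fit, the values were 276, 300.02 and 463 in sgNr2f2 libraries 2 to 4, against 843, 716 and 691 in sgRosa libraries 2 to 4. These did not overlap either. Groups did not overlap, with sgNr2f2 lower, at 8 of the 243 shared regions, or 3.29%, namely the 4 on chrM and 4 on the chromosomes. With sgNr2f2 higher they did not overlap at 5, or 2.06%, all on the chromosomes. The intervals share 1 molecule and 1 scaling per library and do not count as separate observations.

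Of the shared regions on the chromosomes, 3 reached a mean log2 value of at least 9, the level of the chrM regions. They lay on chromosome 9 at 35305146 to 35305661 and on chromosome 2 at 98666179 to 98667378 and at 98662172 to 98663030. These regions were chosen by level alone, and the kind of sequence they hold was not examined. Their log2 differences were -0.17 (SE 0.19), -0.14 (SE 0.20) and -0.17 (SE 0.17), with a limma adjusted p of 0.96 each.

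**Figure D4:**
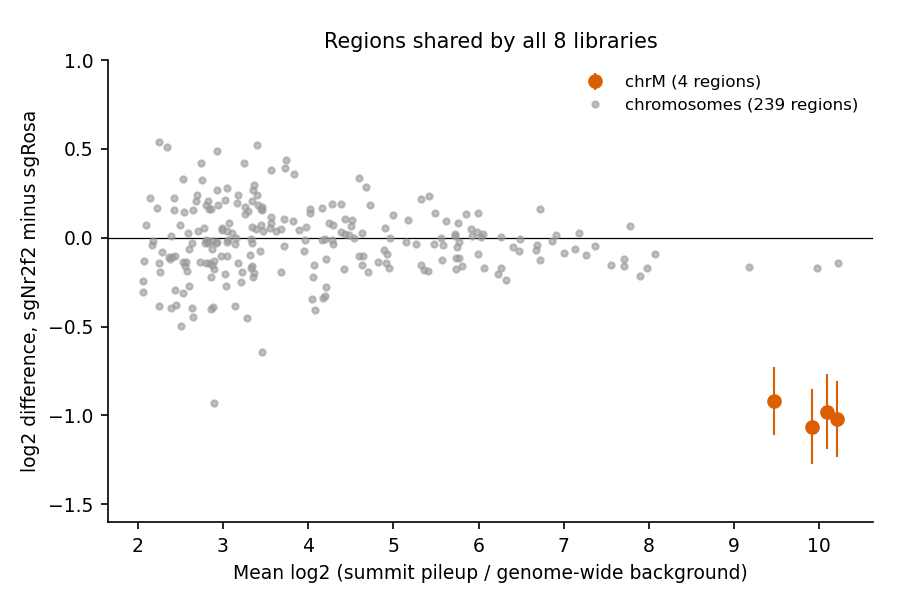
Log2 difference in summit pileup over the genome-wide background (sgNr2f2 minus sgRosa) against its mean over both groups, for the 243 regions shared by all libraries. The 4 chrM regions (orange, bars ± SE) lie between -1.06 and -0.92, and the 3 regions on the chromosomes at a like level lie between -0.17 and -0.14.

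When only the rank of a region within its library was used, the difference did not pass. Regions were ranked by −log10 p among the 243 shared regions, and the ranks were turned into normal scores. The rRNA interval ranked 18, 29, 38 and 23 in sgNr2f2 libraries 1 to 4, against 11, 9, 11 and 22 in sgRosa libraries 1 to 4. Its score was 0.40 lower in sgNr2f2 (SE 0.12, limma adjusted p = 0.22). The mt-Rnr2 to ND2 interval ranked 11, 21, 22 and 11 in sgNr2f2, against 5, 6, 6 and 10 in sgRosa, without overlap. By rank score the groups did not overlap at 6 of the 243 regions with sgNr2f2 lower (2.47%), 1 of them on chrM, and at 5 with sgNr2f2 higher (2.06%). The score of the mt-Rnr2 to ND2 interval was 0.42 lower in sgNr2f2 (SE 0.10, limma adjusted p = 0.158). The COX1 and ND4 to control region intervals had scores 0.15 and 0.34 lower (limma adjusted p = 0.70 and 0.22). Limma called 0 of the 4 chrM regions and 0 of all 243 (0%), while 3 and 22 had an unadjusted p under 0.05.

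Within chrM many summits recurred at the same place in libraries of both groups. Summits within 30 bp of each other in genome order were joined, which gave 47 summit positions, of which 17 were found in all 8 libraries and 13 in 1 library. The 17 positions, which spanned at most 42 bp each, held 136 of the 241 summits. Genes differed in how many summits they carried over the 8 libraries: 47 lay in ND5, 31 in ND1, 27 in mt-Rnr2, 26 in ND2, 25 in CYTB, 24 in mt-Rnr1, 16 each in COX1 and ND4, 8 in ND6, 4 in TrnV and 3 in TrnT. The control region held 14.

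Fold enrichment over the local background differed between the recurrent positions. The median fold over the 8 libraries was 2.55 at ND4 (11152 to 11189), 2.46 at ND5 (12429 to 12443) and 2.42 at CYTB (14934 to 14972). It was 2.28 at mt-Rnr2 (1991 to 2027) and 2.09 at mt-Rnr1 (633 to 659). The lowest medians among the 17 positions were 1.47 and 1.52, both in COX1, and 1.67 in the control region (15563 to 15588). At the interval at the end of the control region, fold was 1.35, 1.37 and 1.28 in sgNr2f2 libraries 2 to 4, against 1.23, 1.36 and 1.36 in sgRosa libraries 2 to 4. The correlation of log2 fold between 2 libraries over the 17 positions lay between 0.831 and 0.990. Its median was 0.939 within sgNr2f2, 0.974 within sgRosa and 0.961 between the groups. These positions share library, local background and base composition, and the correlation is given as a description.

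**Figure D5:**
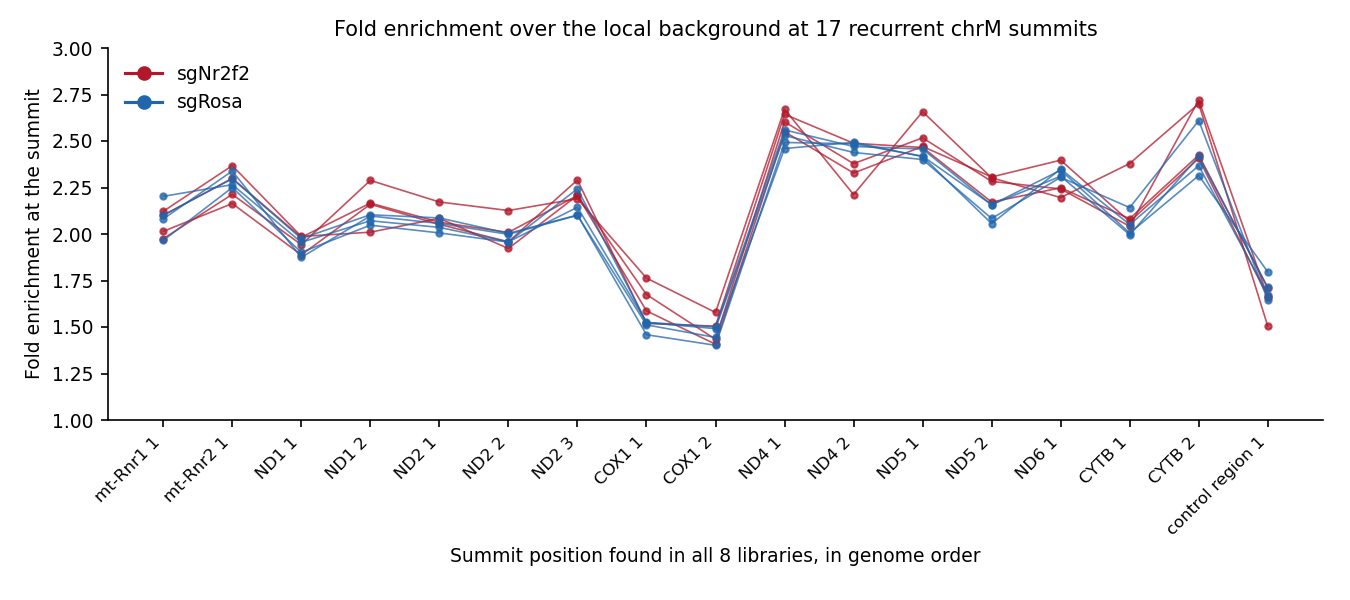
Fold enrichment over the local background at the 17 summit positions found in all 8 libraries, in genome order and named by gene, with 1 line per library. The medians over the 8 libraries are lowest at the COX1 positions (1.47 and 1.52) and highest at the first ND4 position (2.55). Single libraries have their extremes elsewhere, such as sgNr2f2 3, which is lowest in the control region.

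The highest fold of an interval was also compared between the groups. In the rRNA interval it averaged 2.05 ± 0.07 in sgNr2f2 and 2.09 ± 0.0972 in sgRosa, and in the mt-Rnr2 to ND2 interval 2.31 ± 0.0378 in sgNr2f2 and 2.29 ± 0.0392 in sgRosa. In the COX1 interval it averaged 1.64 ± 0.106 in sgNr2f2 and 1.50 ± 0.0315 in sgRosa, and in the ND4 to control region interval 2.65 ± 0.0763 in sgNr2f2 and 2.54 ± 0.0570 in sgRosa (n = 4 libraries per group, ± SD). The libraries of the 2 groups overlapped in all 4. At all 17 positions, in contrast, the pileup over the genome-wide background was lower in every sgNr2f2 library than in every sgRosa library. The 17 positions lie inside the 4 intervals whose highest pileups already did not overlap, and they share the scaling of their library. They therefore do not count as separate observations. The 3.29% of shared regions given above counts regions, the 4 on chrM among them, and is no background for single positions.

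No difference in the number, extent, width or median fold of the chrM intervals passed its test. There were 4, 5, 6 and 5 intervals in sgNr2f2 libraries 1 to 4, against 4, 5, 5 and 5 in sgRosa libraries 1 to 4 (exact p = 1, adjusted p = 1). As a share of all peaks this was 0.00693 ± 0.00288% in sgNr2f2 and 0.00650 ± 0.00219% in sgRosa (exact p = 0.743, adjusted p = 1). The intervals covered 10.2 ± 0.0669 kb in sgNr2f2 and 10.3 ± 0.0871 kb in sgRosa (exact p = 0.229, adjusted p = 1). Their mean width was 2088 ± 346 bp in sgNr2f2 and 2185 ± 238 bp in sgRosa (exact p = 0.457, adjusted p = 1). Their median fold was 2.12 ± 0.0768 in sgNr2f2 and 2.12 ± 0.114 in sgRosa (n = 4 libraries per group, ± SD; exact p = 0.943, adjusted p = 1). All chrM intervals had a q under 0.05 in all 8 libraries, and chrM was the one sequence beyond the chromosomes that carried peaks in each, so these values were equal in the groups.

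No chrM region separated the groups by its presence, that is, was called in all 4 libraries of one and in 0 of the other. Over all 405597 regions there were 4 such regions for sgNr2f2 and 4 for sgRosa, or 0.000986% each. The share of peaks on a sequence was compared for 22 sequences, and 0 passed adjustment (0%). For chrM the adjusted exact p was 0.893.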

How the data were processed

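For every library the authors deposited a narrowPeak list in mm10 coordinates. Among the tools in the submitters' processing notes are MACS2 2.2.9.1, a peak caller, fastp 0.23.2, a read trimmer, and Picard. The aligner, the treatment of duplicates and the options for calling were not stated. A deposited line holds a whole-number score, −log10 p, −log10 q and the summit's fold enrichment, a ratio to the background. Read depth per library is unknown.

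Summits of 1 interval were collapsed to the highest −log10 p. Numbers, widths and pileups came from the full lists, and regions from the strongest 53888 peaks of each library. Single values were compared with a two-sided exact permutation test (70 assignments), and regions by limma 3.58.1 (R 4.3.3) with a trend, with Benjamini-Hochberg adjustment over all shared regions. The genome-wide background was the most frequent background solved from the peaks on the chromosomes. Calculations used scipy 1.17.1 and numpy 2.4.6 under Python 3.11.15 and were tested on simulated data. Gene positions are those of RefSeq on GRCm38.p6, which mm10 represents.

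Text names chrM, the regions found in all libraries, those exclusive to a group, and the genes overlapping a region found in at least 4 libraries. Other mitochondrial genes belong to the full list of 37. The pseudogenes, the Fgf12 region, the 3 strong regions on the chromosomes, the neuronal genes and the summit positions were named after values were seen. Members and lists were chosen with earlier results of these data known. Alternatives were other lists, thresholds, merging, ranking, scaling, leaving out each library, and the replicate number as a block.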

Additional observations from a re-analysis of the deposited data

Results flagged for a closer look

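In 66 sets of 4 libraries, 1 per value and group, the library farthest from its group was examined with Dixon's test, and 13 sets passed its 95% critical value. Chance gives about 1 in 20, and many of these values are small whole numbers or come from the same interval, so the sets are not independent.

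In sgRosa, 1 library had 4 chrM intervals where the others had 5, which flagged the number of intervals both as members and as chrM peaks. It was sgRosa 1, which lacks the control region interval, and its mean interval width of 2542 bp was flagged for the same library. The number of summits was flagged in the rRNA interval of sgRosa (5 in sgRosa 2, against 4 in the others), in the mt-Rnr2 to ND2 interval (10 in sgRosa 4, against 9) and in the ND4 to control region interval (14 in sgRosa 3, against 13).

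Further flags in sgRosa fell on sgRosa 4, the library with the lowest genome-wide background. These were the rank of 22 of the rRNA interval, the −log10 p of 469 of the ND4 to control region interval, and the widths of 3218 bp of the mt-Rnr2 to ND2 interval and 4703 bp of the ND4 to control region interval. In sgRosa 2 the pileup of 1871 times the genome-wide background in the ND4 to control region interval stood above the others. In sgNr2f2 the flags were the highest fold of 2.37 in the mt-Rnr2 to ND2 interval of sgNr2f2 2 and the width of 649 bp of the COX1 interval in sgNr2f2 3.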

How the results depend on the processing

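The lower chrM background over the genome-wide background in sgNr2f2 (-318) kept an exact p of 0.0286 under other settings. These were the median summit pileup in its place (-708), scaling to the nuclear shared regions (-26.3) and leaving out any 1 library (-350 to -273). This p is the smallest that these comparisons allow. With scaling to the nuclear shared regions the groups came close, at 36.2 in sgNr2f2 4, the highest of its group, and 40.6 in sgRosa 4, the lowest of its group. Groups that do not overlap stay apart when 1 library is left out, so the unchanged p adds no support. With the replicate number as a block the exact p of this difference was 0.125, the smallest that 4 pairs allow, at the same difference of -318. Deviations of same-numbered libraries in rank score correlated at 0.136, 0.0338, 0.0647 and -0.181. Those of libraries with different numbers correlated at -0.241 to 0.237. These correlations cannot show whether the replicate numbers pair the libraries. Limma on log2 pileup called all 4 chrM regions under every alternative (other scaling, no trend, replicate block), except that leaving out 1 library gave 0 to 4 calls, with 0 without sgNr2f2 2 or sgNr2f2 3; the Fgf12 call was also lost without sgNr2f2 1, sgRosa 1 or sgRosa 3. Limma on ranks called no chrM region under any alternative (1 nuclear region without a trend), with a smallest adjusted p between 0.0842 and 0.504 without 1 library. Ranked by fold enrichment, 3 scores turned to higher in sgNr2f2: 0.0400 for mt-Rnr2 to ND2, 0.334 for COX1 and 0.0900 for ND4 to control region. With lists of the strongest peaks by fold enrichment, 0 chrM regions were found in all libraries, in place of 4, as chrM fold values are low.

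Small differences changed sign. Without 1 library the difference in number ranged from -0.0833 to 0.583, in share from -5.7e-04 to 0.00146 percentage points, in mean width from -248 to 33.2 bp and in median fold from -0.0540 to 0.0316. With peaks of q under 0.05 the share differed by -0.0201 points, and with every deposited line the median fold by 0.0250. Leaving out chrM leaves no member, so that alternative gave no value. The replicate block changed no other call on chrM, and the causes of the changes were not tested. Without read totals, amounts are relative to each library's own background.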
